A study of Mus musculus with 32 samples.

Results

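The small intestine of mice without Fabp2 was compared with that of mice without Fabp6, gene by gene and with males and females weighted equally. The comparison took in every pool labelled Fabp2KO (2 male and 2 female) and every pool labelled Fabp6KO (2 male and 2 female), which made 8 of the 16 pools and 16 of the 32 arrays of the series. Fabp2KO mice (Fabp2-/-) lacked intestinal fatty acid-binding protein and Fabp6KO mice (Fabp6-/-) lacked the ileal bile acid-binding protein, both on a C57BL/6J background, and C57BL/6J mice were the WT. All mice were 10 weeks old, ate a standard laboratory diet and received no other treatment. Each pool joined RNA from 2 fasted mice of one genotype and sex, taken from the whole small intestine between the stomach and the cecum, so differences between segments of the gut were averaged within a pool. Each pool was hybridized to an Affymetrix Mouse Expression 430A and a 430B array. The 4 WT pools served to place each gene, and the 4 pools of the double knockout entered the choice of probe set for each gene, the estimate of the spread and 1 count.

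FABP2 and FABP6 belong to a family of small cytosolic proteins that carry hydrophobic ligands through the watery interior of the cell. FABP2 binds long-chain fatty acids in absorptive cells along most of the small intestine, where FABP1, the liver-type protein, is also abundant. FABP6 binds bile acids in the ileum, between their uptake across the apical membrane by SLC10A2 and their exit through SLC51A and SLC51B, and it is regarded as a target of the bile acid receptor FXR (Nr1h4).

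All values below are log2 signals as the arrays were deposited, so a difference of 1 is a 2-fold difference. Where 4 values are given for a genotype, they run male 1, male 2, female 1, female 2, each difference is Fabp2KO minus Fabp6KO, and higher or lower is said of Fabp2KO relative to Fabp6KO unless WT is named. A gene was called when limma's Benjamini-Hochberg adjusted p was under 0.2 and the absolute log2 difference over 0.5. With 2 pools for each genotype and sex, the p-values measure the spread between pools of 2 mice. In RNA from whole intestine, fewer cells of a type and less RNA per cell cannot be told apart.

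The 13 measured enterocyte markers had mean log2 signals of 11.24 to 11.32 over the Fabp2KO pools and 11.18 to 11.36 over the Fabp6KO pools, at the level of the WT pools (11.26 to 11.33). Some libraries stood apart. Fabp6 was 11.07, 11.32, 10.90 and 10.84 in the Fabp2KO pools, against 4.91, 4.88, 4.80 and 9.21 in the Fabp6KO pools. The library labelled Fabp6KO female replicate 2 gave a Fabp6 signal at 32.1% of the linear WT female mean, while the other 3 Fabp6KO pools lay between 4.80 and 4.91. Some counts that rest on it are also given without it, and the others are given only with it. In a comparison of 100 probe sets present on both chips, 14 of the 16 pools resembled their own second array most, and Fabp2KO female 1 (r = 0.462) and WT female 2 (r = 0.203) each ranked second with their own. Whether these 3 libraries are what their labels say could not be settled.

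The disrupted genes were checked first. Fabp2 was 9.20, 9.45, 9.20 and 9.04 in the Fabp2KO pools, against 12.79, 12.91, 13.00 and 12.83 in the Fabp6KO pools. The groups were far apart, with WT pools at 12.58 to 13.05, and the log2 difference was -3.66, SE 0.15, adjusted p 2.28e-10. For Fabp6 the difference was 5.08, SE 0.55, adjusted p 4.87e-05, and it was 6.18 without the library labelled Fabp6KO female replicate 2. Fabp1 was 12.83, 12.66, 12.81 and 12.82 in the Fabp2KO pools, against 12.47, 12.56, 12.77 and 12.76 in the Fabp6KO pools. Its groups were apart within each sex, as in 16.8% of all genes tested, and overlapped across sexes. The log2 difference was 0.14, SE 0.06, adjusted p 0.258, and a second Fabp1 probe set gave 0.22 and was not called either. Of the 14 measured genes of the family, Rbp2 and Fabp4 were the other called members, both higher in Fabp2KO. Rbp2, the retinol-binding member of intestinal absorptive cells, was 12.86, 12.66, 12.65 and 12.70 in the Fabp2KO pools, against 12.10, 12.10, 12.20 and 12.22 in the Fabp6KO pools. The 4 Fabp2KO pools all lay above the 4 Fabp6KO pools (0.57, SE 0.08, adjusted p 3.57e-04), and against WT the log2 difference was 0.14 in Fabp2KO and -0.43 in Fabp6KO.

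**Figure D1:**
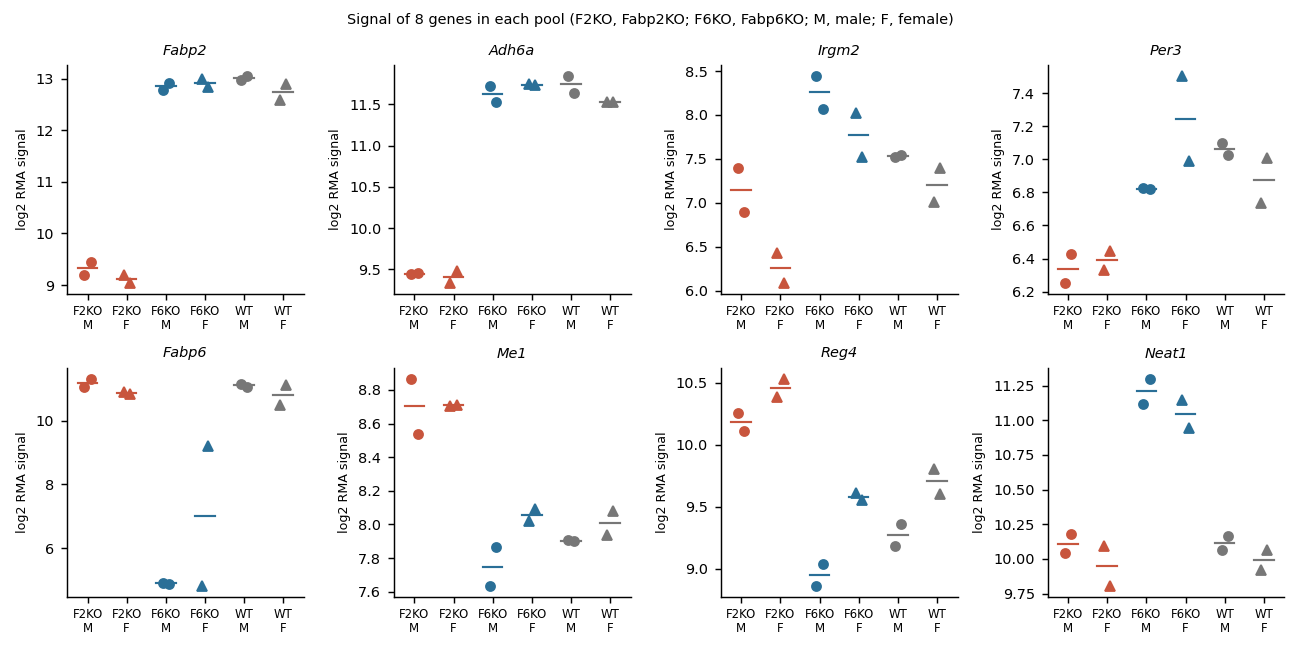
Log2 signal of 8 genes in each pool, with Fabp2KO males and females at the left, Fabp6KO in the middle and WT at the right of each panel; circles are male pools, triangles female pools and bars the mean of 2 pools. Fabp2 lies between 9.04 and 9.45 in Fabp2KO, and in Fabp6KO the Fabp6 signal of one female pool, 9.21, stands above the other 3.

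Across all genes, 185 of 18195 were called (1.02%), 56 of them higher in Fabp2KO (0.308% of all genes) and 129 lower (0.709%). At an adjusted p under 0.05 the count was 173 (0.951%). The median absolute log2 difference of the called genes was 0.61, and 24 passed an absolute difference of 1, of which 10 were higher and 14 lower in Fabp2KO. The median over all genes tested was 0.01, with 55.3% of genes above 0. These values and the 1.02% of genes called are the background for each gene list below. Beyond Fabp6, the largest positive differences were those of the trypsinogen Prss3 (2.22), the chymotrypsin Ctrc (2.04), the clock repressor Nr1d1 (1.31), the desaturase Scd1 (1.26) and Ceacam10 (1.22), a secreted member of the carcinoembryonic antigen family. Beyond Fabp2, the most negative were Adh6a (-2.26), an alcohol dehydrogenase, Pclaf (-1.48), a partner of the replication clamp, Ighm (-1.43), the IgM heavy chain, Irgm2 (-1.31), an immunity-related GTPase, and Gkn1 (-1.27), a gastric secreted protein. Pclaf, Ighm and Mapre2 (-1.24), which codes for a microtubule end-binding protein, are uncertain because their probe sets differed. For Pclaf the other probe sets gave 0.12 and 0.06, for Ighm 11 probe sets ran from -1.43 to 0.40, and for Mapre2 the others ran from -0.15 to 0.07. In 163 of the 185 called genes the pools of the genotypes were apart in the same direction in each sex, against 16.8% of all genes tested, and in 147 the 4 Fabp2KO pools lay wholly above or below the 4 Fabp6KO pools, against 11% of all genes. The same pools made the calls, so larger shares among called genes follow in part from the selection. Without the library labelled Fabp6KO female replicate 2, 268 genes were called.

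**Figure D2:**
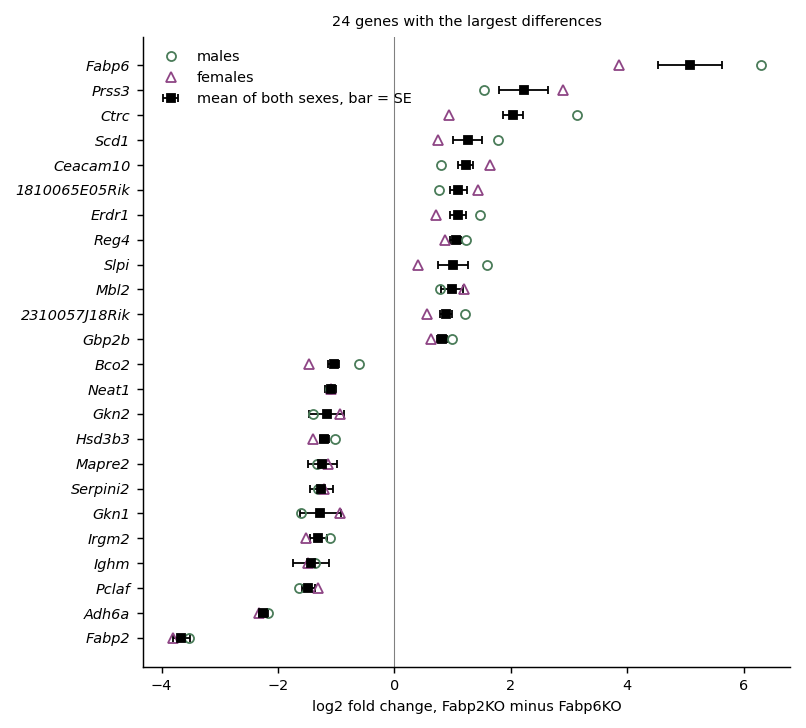
Log2 difference, Fabp2KO minus Fabp6KO, of the 12 genes with the largest positive and the 12 with the largest negative values among called genes with both sexes apart in the same direction; squares with bars are the mean over the sexes ± SE, circles males and triangles females. Fabp6 (5.08) and Fabp2 (-3.66) lie farthest out, and Adh6a (-2.26) follows on the negative side.

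Adh6a had the most negative difference of any gene but Fabp2, and it belongs to a list of alcohol and steroid dehydrogenases. Of 22 measured members, 3 were lower and none higher, and the list's median was -0.05. Adh6a was 9.45, 9.45, 9.33 and 9.48 in the Fabp2KO pools, against 11.73, 11.53, 11.74 and 11.73 in the Fabp6KO pools. No Fabp2KO pool came within 2 log2 units of any Fabp6KO pool, WT pools lay at 11.53 to 11.85, and the difference was -2.26, SE 0.08, adjusted p 1.37e-12. Hsd3b3, a 3-beta-hydroxysteroid dehydrogenase, was 5.83, 5.80, 6.00 and 5.69 in the Fabp2KO pools, against 6.71, 6.97, 7.33 and 7.14 in the Fabp6KO pools. These groups were apart in both sexes (-1.21, SE 0.08, adjusted p 4.81e-08), and against WT the log2 difference was -1.58 in Fabp2KO and -0.38 in Fabp6KO. A second Hsd3b3 probe set gave -0.61. Akr1c19, an aldo-keto reductase, was lower by a log2 difference of -0.64, with Fabp2KO pools at 9.21 to 9.60 and Fabp6KO pools at 9.83 to 10.42. Other members had values under the fold threshold, such as Akr1c13 (-0.48), Akr1c14 (-0.46) and Hsd3b2 (-0.42).

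Single genes that handle vitamins and foreign compounds were also called. Bco2, which cleaves carotenoids in mitochondria, was 7.88, 7.63, 6.90 and 7.43 in the Fabp2KO pools, against 8.34, 8.40, 8.64 and 8.62 in the Fabp6KO pools. Every Fabp2KO pool lay below every Fabp6KO pool (-1.04, SE 0.10, adjusted p 1.35e-05), with -0.62 in males and -1.47 in females, and it was 1 of 2 called genes of the 21 measured for retinoid handling, the other being Rbp2. Abcb1a, the P-glycoprotein efflux pump, was 10.03, 10.08, 9.81 and 9.58 in the Fabp2KO pools, against 10.47, 10.69, 10.99 and 10.55 in the Fabp6KO pools. Its Fabp2KO pools were also below all Fabp6KO pools (-0.80, SE 0.10), and WT pools lay at 10.78 to 11.02. Fmo5, a flavin-containing monooxygenase, had a log2 difference of -0.74, but its other probe sets gave -0.08 and -0.18 and were not called. Abcb1a and Fmo5 were the only called genes of 31 measured for ester hydrolysis, conjugation and efflux. Of 43 cytochrome P450 genes, Cyp2b10, a target of the xenobiotic receptor CAR, was lower (-0.51) and Cyp2e1 higher (0.60, adjusted p 0.152), with male and female values of 1.04 and 0.15 for Cyp2e1. Both P450 calls were lost when some single pools were left out. For Cyp2b10 the genotypes were apart within each sex, and its other probe sets gave -0.53 and -0.54 and were also called. Cyp2b10 had values of -0.40 to -0.49, under the fold threshold, without Fabp2KO male 1, Fabp2KO female 1, Fabp6KO male 2 or Fabp6KO female 1, and Cyp2e1 had an adjusted p of 0.209 to 0.514 without Fabp2KO male 2, Fabp2KO female 1, Fabp6KO male 1, Fabp6KO male 2 or the library labelled Fabp6KO female replicate 2. None of 32 glutathione genes was called.

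The share of called genes was highest on the chromosome that carries Fabp2. On chromosome 3, 28 of 913 tested genes were called (3.07%), 8 higher and 20 lower in Fabp2KO, and on chromosome 9 22 of 1002 (2.20%), against 1.02% of all genes. Within 200 RefSeq genes on either side of Fabp2, 7 of 148 tested genes were called (4.73%), and in all 7 the WT mean was nearer to Fabp6KO than to Fabp2KO. These were Pde5a (-0.92), a cyclic GMP phosphodiesterase 6 genes away, Fam241a (-0.92), Frrs1 (-0.58), Manba (-0.54), the lysosomal beta-mannosidase, and Camk2d (-0.52), a calmodulin-dependent kinase, all lower in Fabp2KO, with A930005H10Rik (0.53) and Slc39a8 (0.74), a zinc and manganese importer, higher. Adh6a lay 212 genes away, the Gbp2 and Gbp2b pair 256 and 255. Among called genes described in other paragraphs, Hsd3b3, Fmo5, Serpini2, Reg4 and Fabp4 were also on chromosome 3, each more than 400 genes from Fabp2. Within 200 genes of Fabp6, on chromosome 11, none of 145 tested genes was called. Within 400 genes of Fabp6 4 of 285 were called (1.4%), among them Igtp and Irgm2 at 348 and 349 genes. Whether position near the disrupted locus has a part in these differences was not tested.

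Several GTPases induced by interferon-gamma were called, Irgm2, Igtp and Gbp2 lower and Gbp2b higher in Fabp2KO. This cytokine of T cells and natural killer cells induces GTPases of the IRG and GBP families and antigen presentation. Of 32 measured genes on a list of this response, which does not hold Gbp2b, 3 were lower and none higher, 28 had a negative value, and the median was -0.24 beside 0.01 for all genes. The called members of the list were Irgm2, Igtp and Gbp2, GTPases that act at the membranes of vacuoles holding microbes. To set the 3 lower genes beside Gbp2b, the 250 bases before their starts are printed here from the RefSeq annotation of GRCm38.p6. The capitals mark the core of an interferon-stimulated response element (GAAA, any 2 bases, GAAA) or TTCNNNGAA, a gamma-activated site, on either strand.
Irgm2, chr11:58214727-58214976, plus strand: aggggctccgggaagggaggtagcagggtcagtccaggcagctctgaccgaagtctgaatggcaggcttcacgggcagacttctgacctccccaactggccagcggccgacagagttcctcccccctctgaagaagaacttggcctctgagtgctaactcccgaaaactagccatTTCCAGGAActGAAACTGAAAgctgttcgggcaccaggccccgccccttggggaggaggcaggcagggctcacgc
Igtp, chr11:58199306-58199555, plus strand: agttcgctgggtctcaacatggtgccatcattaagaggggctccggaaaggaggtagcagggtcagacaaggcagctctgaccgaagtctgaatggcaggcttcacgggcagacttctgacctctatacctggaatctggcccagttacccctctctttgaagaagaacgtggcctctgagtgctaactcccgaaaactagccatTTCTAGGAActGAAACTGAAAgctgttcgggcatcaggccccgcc
Gbp2, chr3:142620413-142620662, plus strand: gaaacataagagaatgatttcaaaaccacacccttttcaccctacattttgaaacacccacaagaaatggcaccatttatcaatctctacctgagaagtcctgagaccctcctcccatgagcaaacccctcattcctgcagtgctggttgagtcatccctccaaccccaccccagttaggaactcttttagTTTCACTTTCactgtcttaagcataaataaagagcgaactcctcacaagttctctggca
Gbp2b, chr3:142594597-142594846, plus strand: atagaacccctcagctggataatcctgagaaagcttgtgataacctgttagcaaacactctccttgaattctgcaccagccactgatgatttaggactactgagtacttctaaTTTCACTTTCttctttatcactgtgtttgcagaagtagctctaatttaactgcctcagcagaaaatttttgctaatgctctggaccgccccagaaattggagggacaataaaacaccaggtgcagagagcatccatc
The response element core stood 64 bases before the start in Irgm2, 34 in Igtp, 59 in Gbp2 and 137 in Gbp2b, in the last pair as its reverse complement, and was found in 2.98% of 32851 promoters of this length. In Irgm2 and Igtp a match to TTCNNNGAA, found in 7.02% of promoters, lay just upstream at 75 and 45 bases. Of the 32 measured genes 24 had an entry in the promoter table, and 9 of the 24 held the response element core and 6 TTCNNNGAA. A match is a description of the letters and not of a bound site.

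Irgm2 was 7.40, 6.90, 6.43 and 6.09 in the Fabp2KO pools, against 8.45, 8.07, 8.02 and 7.52 in the Fabp6KO pools. The highest Fabp2KO pool lay below the lowest Fabp6KO pool (-1.31, SE 0.14, adjusted p 5.54e-05), while WT pools, at 7.01 to 7.54, lay between the means of the genotypes. Against WT the log2 difference was -0.66 in Fabp2KO and 0.65 in Fabp6KO. Igtp was 9.37, 9.01, 8.74 and 8.19 in the Fabp2KO pools, against 10.09, 9.83, 9.24 and 9.34 in the Fabp6KO pools. The groups were apart within each sex and overlapped across sexes (-0.80, SE 0.11, adjusted p 3.57e-04). Gbp2 was 6.64, 6.56, 6.29 and 5.94 in the Fabp2KO pools, against 7.07, 7.17, 6.70 and 6.88 in the Fabp6KO pools. Its highest Fabp2KO pool lay just below its lowest Fabp6KO pool (-0.60, SE 0.08, adjusted p 3.01e-04). Gbp2b was 7.28, 7.17, 7.04 and 6.68 in the Fabp2KO pools, against 6.26, 6.21, 6.10 and 6.35 in the Fabp6KO pools. It had the opposite direction, with all Fabp2KO pools above all Fabp6KO and WT pools (0.81, SE 0.08, adjusted p 3.56e-05). Gbp2 and Gbp2b are close paralogs that lie side by side, so probes could share signal between them and both values are uncertain. Members under the fold threshold were led by Nlrc5 (-0.43), the activator of MHC class I genes, and Irf1 (-0.39), and the class II genes H2-Ab1, H2-Aa and Cd74 had -0.27, -0.10 and -0.10. Of 29 type I interferon genes, Parp14 alone was called, and it was lower (-0.60, SE 0.09; a second probe set gave -0.32), while 3 were lower without Fabp6KO male 2 or Fabp6KO female 1 and 2 without Fabp2KO male 1, male 2 or female 2. Without the library labelled Fabp6KO female replicate 2, 4 of the 32 interferon-gamma genes were lower and the median was -0.21, and the count was 6 without Fabp2KO male 1 and 5 without Fabp6KO male 2.

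Markers of T cells and intraepithelial lymphocytes, which make interferon-gamma, had 4 calls. Of 16 measured markers 4 were lower and none higher (25%, against 1.02% of all genes), 13 were negative, and the median was -0.20. Sign counts this uneven were also seen elsewhere, with 13 of 16 hepatocyte markers negative, and 13 of 16 B cell and 13 of 15 enteroendocrine markers positive. The called T cell markers were Gzma (-0.64), a granzyme of cytotoxic granules, Klrd1 (-0.61), a receptor of natural killer cells, Cd3g (-0.52), a chain of the T cell receptor complex, and Itgae (-0.51), the integrin that holds lymphocytes in the epithelium. The mean log2 signal of the 16 markers was 6.69 to 6.91 over Fabp2KO pools, 6.86 to 7.21 over Fabp6KO pools and 6.93 to 7.14 over WT pools. The Fabp6KO males were highest, and the Fabp6KO females lay within the range of the Fabp2KO pools. Cd8a (-0.36) and Cd8b1 (0.22) did not pass and differed in sign. Without Fabp2KO female 2 or without Fabp6KO male 1 the count was 2, with Cd3g at -0.39 and -0.45 and Itgae at -0.43 and -0.49. A second Itgae probe set gave -0.24 and was not called. The part of the lymphocyte markers in the interferon genes was not tested.

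Nuclear RNAs and splicing factors had 7 called members (26.9%), against 1.02% of all genes. This was the largest count of the 40 lists, which differ in size. The shares were larger for gastric epithelium (30%) and the Fabp family (28.6%), where the called members include Fabp2 and Fabp6, the disrupted genes that define the groups. Neat1 is the RNA on which paraspeckles assemble, Malat1 an RNA of nuclear speckles, and the other genes code for proteins of these bodies or for splicing factors. Of 26 measured genes of the paraspeckle and nuclear retained RNAs 7 were lower and none higher in Fabp2KO, 23 were negative, and the median was -0.33. Neat1 was 10.04, 10.18, 10.10 and 9.80 in the Fabp2KO pools, against 11.12, 11.30, 11.14 and 10.95 in the Fabp6KO pools. All 4 Fabp6KO pools stood above all others, WT included (9.92 to 10.16), and the difference was -1.10, SE 0.09, adjusted p 2.43e-06. Neat1 differed from WT by -0.02 in Fabp2KO and 1.08 in Fabp6KO on the log2 scale, and a second Neat1 probe set on the array gave no difference between the knockouts (-0.00). Malat1 was 9.18, 9.56, 9.44 and 10.55 in the Fabp2KO pools, against 10.65, 10.71, 10.60 and 10.63 in the Fabp6KO pools. One Fabp2KO pool, female 2, lay just below the lowest Fabp6KO pool and the other 3 lay about 1 log2 unit lower (-0.96, SE 0.17, adjusted p 0.00328), and its other probe sets ran from -1.02 to -0.09. The remaining called members were Paxbp1 (-0.63), Hnrnpa2b1 (-0.62), Sfpq (-0.59), a core paraspeckle protein, Ccnl1 (-0.53) and Pnisr (-0.52). The other probe sets of Paxbp1 gave -0.29 and -0.00 and those of Hnrnpa2b1 -0.39 to -0.27, none of them called.

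For this list the comparisons with WT gave the following. The list median was -0.02 for Fabp2KO against WT and 0.23 for Fabp6KO against WT, where 1 gene was lower than WT in Fabp2KO and 4 were higher than WT in Fabp6KO. Over all genes, 123 were called between Fabp2KO and WT (0.676%) and 66 between Fabp6KO and WT (0.363%; 119 without the library labelled Fabp6KO female replicate 2). Mean log2 signals of the 26 genes were 7.22 to 7.42 in the Fabp2KO pools, 7.56 to 7.78 in the Fabp6KO pools and 7.36 to 7.48 in the WT pools, with no overlap between the knockouts. Without the library labelled Fabp6KO female replicate 2, 10 of the 26 were lower and the median was -0.39, and leaving out 1 other pool of the knockouts gave 5 to 9. Hnrnpa2b1 lay at -0.48 without Fabp2KO female 2, where the count was 5. RNA integrity of each pool was not analysed here, and its part in the levels of these nuclear RNAs was not tested.

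**Figure D3:**
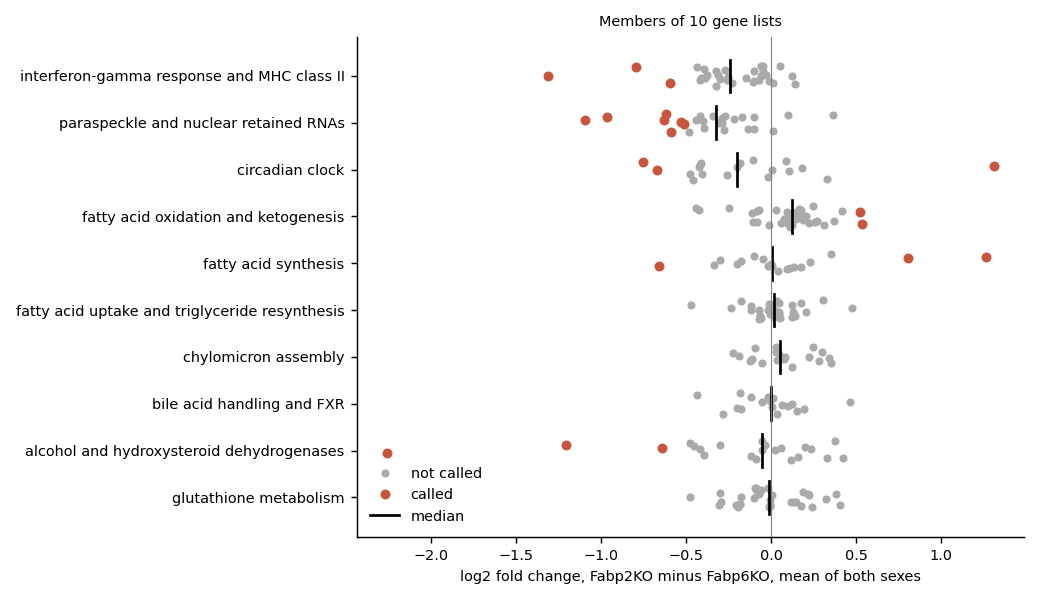
Log2 difference, Fabp2KO minus Fabp6KO, of each measured gene in 10 gene lists; red points are called genes, grey points the rest and black bars the list medians. Points of the paraspeckle list lie mostly left of 0 (23 of 26, median -0.33), and those of the bile acid list on both sides of it with none called (median -0.00).

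Clock genes moved in both directions. The circadian oscillator runs on BMAL1 (Arntl) and CLOCK, which drive the Per and Cry repressors and Nr1d1, and NR1D1 in turn represses Arntl. Of 19 measured clock genes Nr1d1 was higher and Per2 and Per3 lower, with a list median of -0.20. Without 1 pool of the knockouts the lower count was 2 to 4, with 4 lower and 2 higher without Fabp6KO female 1. Nr1d1 ran from 8.28 in female 2 to 9.32 in male 2 of the Fabp2KO pools, with male 1 and female 1 (9.12) between them, against 7.01, 7.50, 8.31 and 7.65 in the Fabp6KO pools. Males of the genotypes were apart by more than 1 log2 unit, while Fabp2KO female 2 lay just below the highest Fabp6KO pool (1.31, SE 0.21, adjusted p 0.00173, with 1.90 in males and 0.72 in females). Per2 was 5.20, 5.22, 5.10 and 5.04 in the Fabp2KO pools, against 5.82, 5.54, 6.24 and 5.97 in the Fabp6KO pools. Every Fabp2KO pool was below every Fabp6KO pool (-0.75, SE 0.11, adjusted p 0.00102), but its other probe sets gave -0.36 and -0.23 and were not called. Per3 was 6.25, 6.43, 6.33 and 6.45 in the Fabp2KO pools, against 6.82, 6.82, 7.50 and 6.99 in the Fabp6KO pools. Its groups did not overlap either (-0.67, SE 0.12, adjusted p 0.00393), but its other probe sets ran from -0.34 to 0.04. For the D-box, TTATGTAA, a site of the clock output factors DBP, TEF and HLF, the 250 bases before Per3 are printed here. The D-box lay at 205 and 158 bases from the start (capitals). It was found in 0.819% of promoters, and Per3 was the only member of the 17 clock genes with an entry that held it.
Per3, chr4:151044666-151044915, minus strand: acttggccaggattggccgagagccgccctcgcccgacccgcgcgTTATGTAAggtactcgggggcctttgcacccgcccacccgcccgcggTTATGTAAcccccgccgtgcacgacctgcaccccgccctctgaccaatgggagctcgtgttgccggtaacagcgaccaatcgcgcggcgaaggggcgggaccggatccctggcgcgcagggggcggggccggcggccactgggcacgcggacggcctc
Cry1 (-0.42), Bhlhe40 (-0.46), Arntl (-0.20), Clock (-0.02) and Dbp (0.33) did not pass. The E-box CACGTG was found in 6.02% of promoters and in 5 of the 17 clock genes. Clock transcripts change with the hour of the day, the hour at which each mouse was killed was not given in the sources used here, and its part in these differences was not tested.

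Genes of fatty acid handling, the pathway of FABP2 itself, gave 5 calls in 4 lists. Of 28 measured genes for fatty acid uptake and triglyceride resynthesis none was called, with Dgat1, the last enzyme of triglyceride synthesis, at -0.47 and Cd36, a fatty acid translocase, at 0.47, and none of 20 for chylomicron assembly was called either. In fatty acid synthesis 2 of 19 genes were higher and 1 lower. Me1, malic enzyme, a source of NADPH, was 8.87, 8.54, 8.70 and 8.71 in the Fabp2KO pools, against 7.63, 7.87, 8.02 and 8.09 in the Fabp6KO pools. All Fabp2KO pools exceeded all Fabp6KO pools, which lay near the WT pools (7.90 to 8.08), and the difference was 0.80, SE 0.08, adjusted p 3.07e-05. Scd1, which introduces the double bond of oleate, was 9.65, 10.69, 11.04 and 9.73 in the Fabp2KO pools, against 8.50, 8.27, 9.66 and 9.62 in the Fabp6KO pools. Fabp2KO and Fabp6KO pools were apart in each sex, although Fabp2KO female 2 exceeded its nearest Fabp6KO female pool by under 0.1 (1.26, SE 0.25, adjusted p 0.00722). Mlxipl, the carbohydrate-responsive transcription factor ChREBP, was 8.73, 8.94, 9.05 and 8.83 in the Fabp2KO pools, against 9.36, 9.55, 9.74 and 9.53 in the Fabp6KO pools. All Fabp6KO pools lay above all Fabp2KO pools (-0.66, SE 0.08), and against WT the log2 difference was 0.02 in Fabp2KO and 0.68 in Fabp6KO. Fasn (-0.18), Acaca (0.00) and Srebf1 (-0.05) were not called.

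In fatty acid oxidation and ketogenesis 2 of 39 genes were higher, none lower, 30 were positive, and the median was 0.12. The called members were Vnn1 (0.54), a pantetheinase, and Acaa1b (0.52), a peroxisomal thiolase, both regarded as targets of PPAR-alpha. Vnn1 was 9.92, 10.31, 10.29 and 10.10 in the Fabp2KO pools, against 9.37, 9.72, 9.73 and 9.66 in the Fabp6KO pools. Its Fabp2KO pools all lay above its Fabp6KO pools, and a second probe set gave 0.46, under the fold threshold. This count depended on single pools, since none was higher when Fabp2KO male 2, Fabp2KO female 1 or Fabp6KO male 1 was left out, and 1 was higher and 1 lower without the library labelled Fabp6KO female replicate 2. Vnn1 then lay at 0.44, 0.49 and 0.45 and Acaa1b at 0.41, 0.50 and 0.38 without the first 3 pools, and Acaa1b at 0.34 without the library. Leaving out Fabp6KO female 1 gave 4 higher genes and Fabp6KO male 2 gave 3. In sugar handling, Pck1, the gluconeogenic enzyme PEPCK, was 8.78, 9.25, 9.84 and 9.82 in the Fabp2KO pools, against 8.18, 8.96, 8.69 and 8.86 in the Fabp6KO pools (0.75, SE 0.14, adjusted p 0.0042). The females of the genotypes were apart and the males overlapped, and against WT the log2 difference was -0.05 in Fabp2KO and -0.80 in Fabp6KO. Its other probe sets gave 0.59 and 0.04, the second not called. Of 22 genes for cholesterol synthesis none was called.

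Bile acid handling, the pathway of FABP6, gave no call among 18 measured genes, and its median was -0.00. Slc10a2, the apical uptake carrier, had a log2 difference of -0.44 (adjusted p 0.131) and Fgf15, the hormone through which the ileum restrains bile acid synthesis in the liver, one of 0.46 (adjusted p 0.122). The bile acid receptor Nr1h4 (0.00), its target Nr0b2 (-0.01) and the basolateral exporters Slc51a (0.12) and Slc51b (0.01) lay near 0. With 1 pool of the knockouts left out, at most 1 of the 18 was called. Muc3, a membrane mucin, was the only other called gene of the 14 measured distal intestine markers beside Fabp6, and it was lower in Fabp2KO than in Fabp6KO (-0.50; log2 differences from WT were 0.17 in Fabp2KO and 0.67 in Fabp6KO), with values of -0.41 to -0.48, under the fold threshold, without Fabp2KO male 1, Fabp2KO female 1, Fabp6KO male 2 or Fabp6KO female 1.

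Reg4, Ceacam10 and Mbl2 were among the 12 genes named for the largest positive values. Reg4, a lectin of secretory epithelial cells, was 10.26, 10.11, 10.38 and 10.53 in the Fabp2KO pools, against 8.86, 9.04, 9.61 and 9.55 in the Fabp6KO pools. The Fabp2KO pools all lay above the Fabp6KO pools (1.05, SE 0.09, adjusted p 4.60e-06), and it was the only called gene of 24 Reg lectins, serum amyloids and defence genes, among which Reg3g had 0.01 and Reg3b 0.19. Ceacam10 was 7.85, 7.16, 7.11 and 6.83 in the Fabp2KO pools, against 6.72, 6.68, 5.18 and 5.46 in the Fabp6KO pools. Its pools were also fully apart, with WT males near Fabp2KO and WT females between the knockouts (5.81 to 7.35), and the difference was 1.22, SE 0.13, adjusted p 3.56e-05. Its other probe sets gave 1.22 and 0.13, the second not called. Mbl2, a mannose-binding lectin that starts complement, had a log2 difference of 0.99 (SE 0.19). The less characterized transcripts 1810065E05Rik, Erdr1 and 2310057J18Rik had 1.10, 1.09 and 0.88, and a second Erdr1 probe set gave 0.01. In metal uptake Slc39a8 (0.74) and Mt2, a metallothionein (0.56), were higher and Tfrc, the transferrin receptor (-0.60), lower, among 23 measured genes. Against WT, Mt2 had log2 differences of 0.01 in Fabp2KO and -0.54 in Fabp6KO. The 8 other Tfrc probe sets gave -0.43 to -0.29 and a second one of Slc39a8 0.47, none of them called. Mt2 lay at 0.50 without Fabp2KO female 1 and 0.43 without Fabp6KO male 1, and Tfrc at -0.43 without Fabp6KO female 1, each under the fold threshold.

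Slpi, a protease inhibitor of mucosal surfaces, owed much of its difference to 1 pool, although every Fabp2KO pool lay above every Fabp6KO pool. It was 11.22, 9.21, 9.17 and 9.11 in the Fabp2KO pools, against 8.51, 8.74, 8.52 and 8.95 in the Fabp6KO pools. Fabp2KO male 1 stood about 2 log2 units above the other 3 Fabp2KO pools, and the difference was 1.60 in males and 0.41 in females (adjusted p 0.0357 over both). With that pool left out the difference over both sexes was 0.50, just under the fold threshold.

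Markers of other tissues that a dissected intestine can carry also differed. Of 20 digestive enzymes and other products of pancreatic acinar cells 3 were higher in Fabp2KO, Prss3, Ctrc and the kallikrein Klk1 (0.55, adjusted p 0.171, with other probe sets at 0.52, 0.09 and -0.01), all 20 had a positive value, and the median was 0.27. Prss3 was 6.81, 8.40, 9.81 and 8.51 in the Fabp2KO pools, against 6.28, 5.85, 5.46 and 7.06 in the Fabp6KO pools, and the difference was 2.22, SE 0.42, adjusted p 0.00616. The genotypes were apart within each sex, and Fabp2KO male 1 lay below the highest Fabp6KO female. Ctrc was 9.95, 10.84, 7.73 and 8.34 in the Fabp2KO pools, against 7.33, 7.18, 6.97 and 7.25 in the Fabp6KO pools. Fabp2KO males were highest, Fabp2KO females next, and all Fabp6KO and WT pools lay lower (2.04, SE 0.17, adjusted p 4.15e-06). The mean log2 signal of the 20 acinar markers was 10.84 to 11.71 over Fabp2KO pools, 10.56 to 11.10 over Fabp6KO pools and 9.96 to 11.32 over WT pools. The count was 5 without Fabp2KO male 1 or Fabp2KO female 2 (medians 0.48 and 0.47) and 2 without Fabp2KO male 2 or Fabp2KO female 1 (0.07 and 0.09) and without Fabp6KO male 2 or Fabp6KO female 1, where Klk1 had an adjusted p of 0.348 to 0.520. Serpini2, a serpin made in the pancreas, went the other way (-1.26, SE 0.20, adjusted p 0.00151), with pools at 4.39 to 4.81 in Fabp2KO and 5.36 to 6.47 in Fabp6KO.

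Of 9 adipocyte genes 2 were higher in Fabp2KO, 8 had a positive value, and the median was 0.43. Fabp4, the fatty acid-binding protein of fat cells, was 8.71, 9.32, 9.79 and 8.56 in the Fabp2KO pools, against 8.01, 7.76, 8.61 and 8.63 in the Fabp6KO pools. Adipoq, the hormone adiponectin, was 7.24, 8.29, 8.44 and 7.16 in the Fabp2KO pools, against 6.98, 6.55, 7.29 and 7.54 in the Fabp6KO pools. In both genes Fabp2KO male 2 and female 1 were the highest pools and the other Fabp2KO pools lay within or just above the range of Fabp6KO. The differences were 0.84 (SE 0.21; other probe sets 0.69, 0.04 and 0.01) and 0.69 (SE 0.24). The count was 1 without Fabp2KO male 2 or Fabp2KO female 1, where Adipoq had an adjusted p of 0.396 and 0.425, and 5 without Fabp2KO male 1 or Fabp2KO female 2. Adipoq also passed 0.2 without Fabp6KO male 2 (0.330) or Fabp6KO female 1 (0.234). The mean signal of the 9 adipocyte markers was 7.35 to 8.05 over Fabp2KO pools, 7.02 to 7.41 over Fabp6KO pools and 7.18 to 7.36 over WT pools. Scd1, which fat cells also express at a high level, was highest in the same pools as Fabp4, and the part of adipose RNA in the Scd1 difference was not tested.

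Of 20 gastric epithelium markers 4 were lower in Fabp2KO than in Fabp6KO, Gkn1, Gkn2, Tff1 and Muc5ac, and 2 were higher, Gkn3 (0.54) and Ctse (0.53). Of the 20, 12 had a positive value and the median was 0.04. Gkn1 was 7.89, 8.96, 9.78 and 8.67 in the Fabp2KO pools, against 9.94, 10.13, 9.96 and 10.36 in the Fabp6KO pools. Its lowest Fabp6KO pool, 9.94, lay above every Fabp2KO pool and every WT pool. The log2 differences were -1.27 for Gkn1, -1.17 for the related gastrokine Gkn2, -0.85 for the trefoil peptide Tff1 and -0.76 for the gastric mucin Muc5ac. Against WT these genes had values of 0.12, 0.10, 0.09 and 0.24 in Fabp2KO and 1.39, 1.27, 0.94 and 1.01 in Fabp6KO. The acid pump subunits of parietal cells, Atp4a (0.07) and Atp4b (0.10), were not called. The mean signal of the 20 markers was 7.36 to 7.62 over Fabp2KO pools and 7.55 to 7.69 over Fabp6KO pools.

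B cell and plasma cell genes split. Cd79a (0.62), a chain of the B cell receptor, and Mzb1 (0.53), a chaperone of plasma cells, were higher, Ighm lower, and the median of 16 markers was 0.17. Cd79a was 9.10, 7.82, 7.73 and 7.16 in the Fabp2KO pools, against 7.48, 7.51, 7.14 and 7.21 in the Fabp6KO pools. Fabp2KO male 1 stood above all other pools, as it did in the mean of the 16 markers (8.20, against 7.41 to 7.57 in the other Fabp2KO pools and 7.38 to 7.64 in Fabp6KO), and without it no B cell gene was higher (Cd79a 0.30, Mzb1 0.25). None was higher without Fabp2KO female 1 either (0.48 and 0.47), Mzb1 was not called without Fabp6KO female 1 (0.41), and 5 were higher without Fabp2KO male 2. Alb, albumin of liver cells, was lower (-0.74, adjusted p 0.111), with -0.12 in males and -1.35 in females, and it had an adjusted p of 0.244 to 0.352 without Fabp2KO male 1, Fabp2KO female 1, Fabp6KO male 1 or the library labelled Fabp6KO female replicate 2. C1qb, a complement subunit of macrophages, was the only called gene of 19 myeloid markers (0.51; other probe sets 0.44 and 0.19, not called) and lay at 0.25 to 0.47 without Fabp2KO male 1, Fabp2KO female 1, Fabp6KO male 1 or Fabp6KO female 1. None of 12 smooth muscle, 15 enteroendocrine, 10 goblet, 11 tuft or 5 Paneth cell markers was called. The part of any of these cell types in the other results was not tested.

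**Figure D4:**
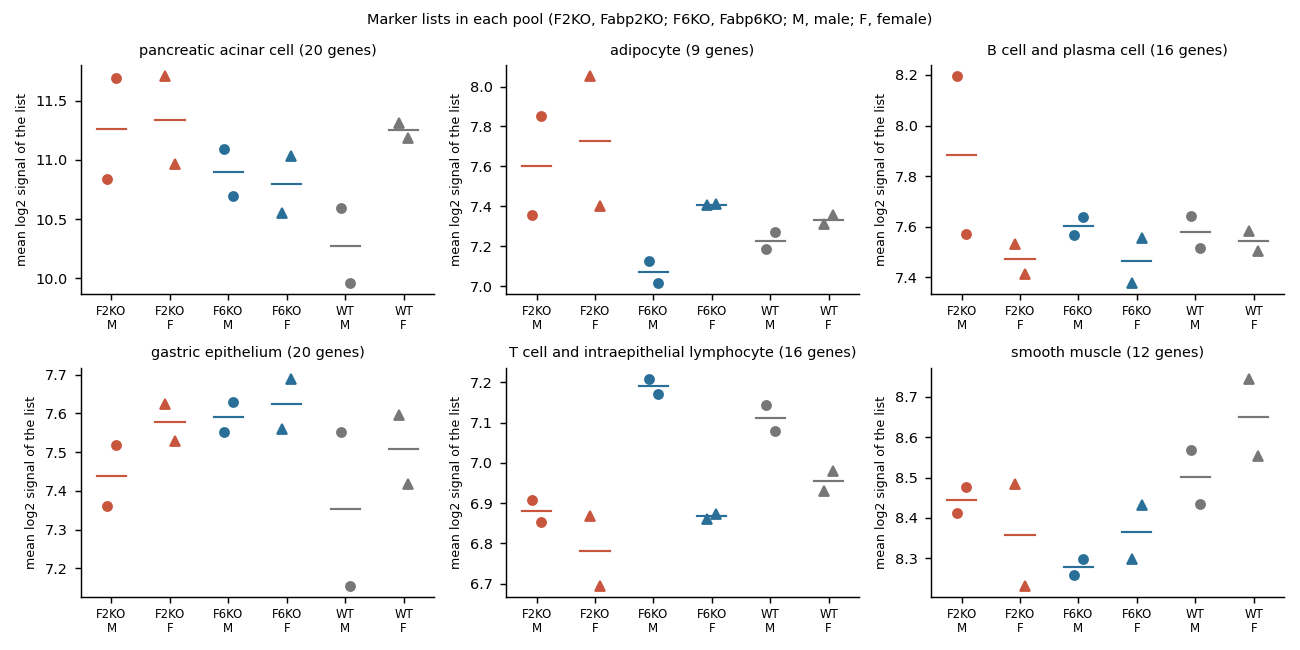
Mean log2 signal of 6 marker lists in each pool, with Fabp2KO at the left, Fabp6KO in the middle and WT at the right; circles are male and triangles female pools and bars the mean of 2 pools, and each panel has its own scale. Fabp2KO pools reach 11.71 for pancreatic acinar cell, 8.05 for adipocyte and 8.20 for B cell and plasma cell markers, above every Fabp6KO pool.

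Separated by sex, 265 genes were called in males (1.46%), 101 higher (0.555%) and 164 lower (0.901%) in Fabp2KO, and 202 in females (1.11%), 41 higher (0.225%) and 161 lower (0.885%). At an adjusted p under 0.05 the counts were 174 in males (0.956%) and 130 in females (0.714%). Calls over both sexes were made on the mean of the male and female differences, which favours genes with the same sign in each sex. The count of shared signs therefore does not measure how alike the sexes were. Of the 185 genes called over both sexes, 184 had the same sign in males and females, 142 were also called in males, 119 in females and 81 in each. The exception was G6pc, the glucose-6-phosphatase of gluconeogenesis. G6pc was 7.30, 7.22, 8.13 and 8.76 in the Fabp2KO pools, against 8.64, 8.91, 7.64 and 8.52 in the Fabp6KO pools. Males of Fabp2KO lay below males of Fabp6KO (-1.51) and females did not (0.37). The interaction of sex with genotype, the female difference minus the male one, called 1 gene (0.0055%). It was Ctrc, with 3.14 in males and 0.93 in females, an interaction of -2.21 and an adjusted p of 0.0765. For G6pc the interaction was 1.88 (adjusted p 0.258). It was 2.32 without the library labelled Fabp6KO female replicate 2, where 1 Fabp6KO female pool (7.64) was left. In that library G6pc was 8.52, between the Fabp2KO females. Each fit without 1 pool leaves 1 pool for that genotype and sex, and the counts from such fits rest on it. The G6pc difference over both sexes (-0.57) was not called without Fabp2KO female 1, Fabp6KO male 2 or that library (adjusted p 0.285, 0.245 and 0.235). Leaving that library out gave 529 called genes in females and 75 in the interaction, leaving out Fabp6KO male 1 gave 159 in males and 0 in the interaction, and leaving out Fabp2KO male 2 gave 52 in the interaction. Without Fabp6KO male 2 the interaction called 1 gene, which was not Ctrc.

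**Figure D5:**
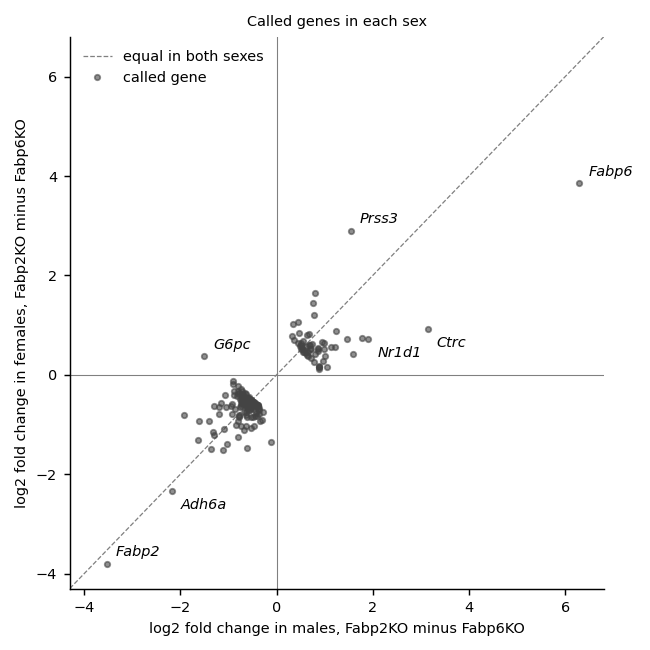
Log2 difference, Fabp2KO minus Fabp6KO, in males (x axis) and females (y axis) for the 185 called genes. Nearly all points lie in the quadrants where the sexes share a sign, and G6pc (-1.51 in males, 0.37 in females) is the exception. Calling genes on the mean of the sexes favours a shared sign.

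Against WT, 38 genes rose (0.209%) and 85 fell (0.467%) in Fabp2KO, and 49 rose (0.269%) and 17 fell (0.0934%) in Fabp6KO, while at an adjusted p under 0.05 the calls numbered 111 (0.61%) and 58 (0.319%). Each gene called between the knockouts was also placed against WT. The WT mean was nearer to Fabp2KO in 72 of the 185 and nearer to Fabp6KO in 113. For the 56 genes higher in Fabp2KO the split was 19 and 37, and for the 129 lower it was 53 and 76. Neat1, Paxbp1, Mlxipl, Pck1, Gkn1 and Muc3 were among those where WT lay nearer to Fabp2KO, and Adh6a, Hsd3b3, Bco2, Abcb1a, Me1 and Gbp2b among those where it lay nearer to Fabp6KO. The double knockout mean was nearer to Fabp2KO in 100 of the 185 genes and nearer to Fabp6KO in 85. Both comparisons with WT share their WT pools, so these counts are a description.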

How the data were processed

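RNA of 16 pools was hybridized to 430A and 430B arrays, and the authors deposited log2 signals per probe set after RMA (background correction, quantile normalization and summarization), with a software version not given in the sources used here. Array medians were 6.57 to 6.62 on 430A and 5.89 to 5.92 on 430B, and the second deposited table of the same values differed in 0 cells. The authors' own comparisons were not used. The number of arrays limits the precision.

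Probe sets with 1 Entrez gene were kept (20393 of 22690 on 430A, 14674 of 22575 on 430B), and for a gene with several on a chip the one whose signal had the widest interquartile range over the arrays stood for it, which left 12394 and 9612 genes, 18195 in all. Genes measured on either chip entered each count 1 time. Symbols were updated by Entrez number, with 12370 and 9472 genes matched to RefSeq. limma 3.58.1 in R 4.3.3 fitted 8 group means (genotype by sex) to 16 arrays of each chip. The contrast averaged the sexes, tests were two-sided with the Benjamini-Hochberg correction for each chip and comparison separately, and a gene was called at an adjusted p under 0.2 with an absolute log2 difference over 0.5, the thresholds of the study's methods. The fit was tested on simulated data.

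Genes were named by rule: Fabp1, Fabp2 and Fabp6, the 12 called genes with the largest positive and the 12 with the largest negative values whose pools were apart in each sex, up to 4 called members of each list and the called interaction gene. Other genes given with a value, such as neighbours of Fabp2 and uncalled list members, were picked with their values known. The pools compared and the 24 pathway and 16 marker lists were chosen with earlier results of these data known. Promoters are those of RefSeq, GRCm38.p6. Alternatives were other probe set choices, filters, normalization, models, thresholds, a replicate block and leaving out pools. Replicate numbers were not used to pair the pools, except in the replicate block.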

Additional observations from a re-analysis of the deposited data

Results flagged for a closer look

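In 6 of 126 groups of 4 pools (63 named genes in Fabp2KO and in Fabp6KO), 4.76%, the highest or lowest pool stood apart from the other 3 by Dixon's criterion at the 95% level, and chance gives about 1 in 20 groups. In Fabp2KO these were Slpi, where male 1 at 11.22 lay above a next value of 9.21 (gap over range 0.954), Fabp1, where male 2 at 12.66 lay below 12.81 (0.870), and Cyp2b10, where male 1 at 8.42 lay below 8.83 (0.831). In Fabp6KO they were Fabp6, where the library labelled Fabp6KO female replicate 2 at 9.21 lay above 4.91 (0.976), Adh6a, where male 2 at 11.53 lay below 11.73 (0.921), and Mzb1, where female 1 at 8.33 lay below 8.73 (0.883).

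For Ctrc the female difference between Fabp2KO and Fabp6KO minus the male one was -2.21 (limma interaction, adjusted p 0.0765), with both Fabp2KO male pools above both Fabp2KO female pools. Ctrc was not called for the interaction without Fabp6KO male 1 or Fabp6KO male 2, with an intensity trend and robust prior, or at an adjusted p under 0.05.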

How the results depend on the processing

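The 185 calls over both sexes became 133 with the probe set of highest mean signal per gene and 171 to 196 under the other probe set choices, filters, models and normalizations, and 173 at an adjusted p under 0.05. They were 179 to 268 with 1 pool left out and 296 without both Fabp2KO female 1 and the library labelled Fabp6KO female replicate 2. Without both of these, females had 837 calls, the interaction 699 and Fabp6KO against WT 119. That fit left only Fabp2KO female 2 and Fabp6KO female 1 among the knockout females, so neither group had a replicate. Its counts for females and the interaction cannot separate genotype from single pools, and are no better estimates than the main counts. The pools left had different replicate numbers, while deviations of same-numbered knockout female pools correlated at 0.34. The part of such deviations in these counts was not tested. With all pools, at an adjusted p under 0.05 males had 174, females 130 and the interaction 0. With 1 pool left out, males had 159 to 372, females 163 to 529, the interaction 0 to 75, Fabp2KO against WT 104 to 157 and Fabp6KO against WT 65 to 119. The interaction also called 4 genes after an interquartile range filter and 0 with an intensity trend and robust prior.

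Deviations of same-numbered pools correlated at 0.34 between Fabp2KO females and Fabp6KO females over 18195 genes. The other pairs among the groups of these genotypes and WT ran from -0.19 to 0.08. Same-numbered female pools of the knockouts thus shared part of their deviations, which the main fit did not take into account. With a replicate block common to all groups, 186 genes were called over both sexes, 202 in females and 3 in the interaction.

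Among 690 values of named genes under settings other than leaving out 1 pool, 657 kept direction and call, 32 kept direction only and 1 reversed, Pclaf, at 0.12 with the probe set of highest mean signal. With 1 pool left out, 950 of 1008 kept direction and call and 58 direction only, in 18 genes. The fit on the 8 arrays of both knockouts alone gave only the comparison over both sexes. The causes were not tested.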

Other observations

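Several other gene groups gave no call. None of 41 respiratory chain genes was called between Fabp2KO and Fabp6KO (median -0.01), none of 37 for serine synthesis and the amino acid response (0.00), none of 27 for crypt stem cells and proliferation (-0.09, with Mki67 at -0.36 and Lgr5, the marker of crypt base stem cells, at -0.01), none of 23 brush border peptidases and amino acid carriers (-0.07) and none of 13 for sterol transport (-0.07, with the cholesterol carrier Npc1l1 at -0.27). Hepatocyte markers other than Alb were not called either (16 measured, median -0.14).

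Of 11 proximal intestine markers, Adh6a and Cyp2b10 were lower in Fabp2KO, the median was -0.03, and the others, such as Gata4 (0.15), which specifies the proximal small intestine, Tmprss15 (-0.23), the enteropeptidase that activates trypsinogen, and the iron exporter Slc40a1 (-0.00), did not pass. Adh6a was placed among these markers with earlier results of these data known.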
